A study of Mus musculus with 15 samples.

Results

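The collagen genes are the mouse genes whose symbol is Col, a number, a and a number, such as Col1a1 or Col14a1. Membership was set by symbol alone, although the family was chosen with earlier results of these data known. Of the 25206 probe sets in the deposited array table, 44 carried such a symbol, out of 23185 probe sets with a gene symbol. The 44 genes encode chains of 27 collagen types. By class they were 11 fibrillar chains, 6 basement membrane type IV chains, 6 microfibrillar type VI chains, 9 fibril-associated chains, 2 multiplexins, 4 transmembrane collagens and 6 others.

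The series measured total RNA of adipocytes sorted by flow cytometry from UCP1/Tomato mice aged 8 to 10 weeks, on 1-colour Affymetrix arrays. BAT holds 3 arrays of brown adipocytes, sorted as UCP1-positive from the brown adipose tissue of mice given no drug. CL, RS and RG hold 3, 2 and 3 arrays of UCP1-positive adipocytes from inguinal fat of mice given CL316243 (a beta3-adrenergic agonist), roscovitine (a cyclin-dependent kinase inhibitor) and rosiglitazone (a PPARG agonist). WAT holds 4 arrays of white adipocytes, sorted as UCP1-negative from the inguinal fat of mice given no drug. The cells of all 5 groups therefore come from the same reporter mice. All other groups differ from WAT in the gate, BAT also in the depot, and CL, RS and RG also in treatment. No group holds UCP1-positive inguinal cells of untreated mice or UCP1-negative cells of treated mice. None holds UCP1-negative cells of brown fat. Gate and treatment therefore cannot be told apart in CL, RS and RG against WAT, nor gate and depot in BAT against WAT. The labels call the gate UCP1(GFP) although the mice carry a Tomato reporter, and they give the RS cells as Brite. They state no dose, treatment time, sex or array batch, and do not say whether the arrays of a group came from separate animals, so the p-values below measure the spread between these arrays, which may be technical.

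Collagens are triple helices of protein chains that are hydroxylated and folded in the endoplasmic reticulum, secreted, trimmed and cross-linked outside the cell. Types I, III and V build the banded fibrils of loose connective tissue, type VI forms a beaded microfibril network close to the cell, and type IV forms the sheet of the basement membrane that wraps each fat cell. In adipose tissue, fibroblast-like stromal and progenitor cells are a main source of fibrillar collagen, while adipocytes and endothelial cells add basement membrane collagen.

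Promoter sequences are shown for a fibrillar chain that was lower than in WAT in 3 of the groups, and for the pair of type IV chains that passed the test in no comparison. Windows of 250 bases before to 50 bases after the annotated start were taken from RefSeq on build GRCm38.p6, which held 38 windows for 35 of the 44 genes. No window was held for Col1a1, Col2a1, Col4a3, Col5a2, Col9a3, Col12a1, Col14a1, Col22a1 and Col26a1. The Col1a2 window lies at chr6:4505368-4505667 on the plus strand, and its capitals mark GGGCGG at window positions 46 and 63, CCAAT at 142 and ATTGG, the reverse complement of CCAAT, at 251, counted from 1 at the window's 5′ end.
Col1a2: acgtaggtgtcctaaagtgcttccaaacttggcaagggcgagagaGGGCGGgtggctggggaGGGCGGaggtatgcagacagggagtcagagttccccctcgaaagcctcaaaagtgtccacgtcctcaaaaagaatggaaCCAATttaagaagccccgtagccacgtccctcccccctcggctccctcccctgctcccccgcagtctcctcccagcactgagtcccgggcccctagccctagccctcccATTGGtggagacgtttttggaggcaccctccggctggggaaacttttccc
The Col4a1 window lies at chr8:11312777-11313076 on the minus strand and the Col4a2 window at chr8:11312555-11312854 on the plus strand, and capitals mark the 78 bases that both windows share on opposite strands. The start sites of the gene pair thus lie head to head.
Col4a1: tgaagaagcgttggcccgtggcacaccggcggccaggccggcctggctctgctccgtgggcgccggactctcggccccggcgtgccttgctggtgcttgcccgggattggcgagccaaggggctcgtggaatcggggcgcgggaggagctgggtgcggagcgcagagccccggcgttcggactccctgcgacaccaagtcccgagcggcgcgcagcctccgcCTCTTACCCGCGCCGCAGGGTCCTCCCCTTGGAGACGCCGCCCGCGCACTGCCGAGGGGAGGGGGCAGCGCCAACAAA
Col4a2: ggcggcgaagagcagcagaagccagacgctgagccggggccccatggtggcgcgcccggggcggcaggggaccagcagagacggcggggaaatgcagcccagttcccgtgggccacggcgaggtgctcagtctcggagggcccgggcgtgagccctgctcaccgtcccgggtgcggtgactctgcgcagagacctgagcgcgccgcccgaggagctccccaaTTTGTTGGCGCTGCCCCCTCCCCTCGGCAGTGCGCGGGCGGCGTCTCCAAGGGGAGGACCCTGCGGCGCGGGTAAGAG
Searched on both strands, CCAAT was held by 13 of the 38 collagen windows (34.2%), against 37.4% of all 32851 windows of the table. GGGCGG, a Sp-factor box, was held by 23 of the 38 (60.5%), against 35.7% of all windows. The bases shared by the Col4a1 and Col4a2 windows hold GGGCGG, so the same site lies in both. The base composition of the windows was not compared. The motifs do not overlap each other in the Col1a2 window, and a match describes these letters only.

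Values are the deposited log2 values, so a difference of 1 is a doubling. Array medians over all probe sets lay between 3.33 and 3.47, and between 24 and 32 of the 44 collagen genes lay above the median of their array. Over the 15 arrays, 11 collagen genes averaged at least 5 (Col1a1, Col1a2, Col3a1, Col5a1, Col5a3, Col6a1, Col6a2, Col6a3, Col4a1, Col4a2 and Col15a1), and 33 averaged less, 20 of them below the highest array median. Values over all probe sets spread less on the BAT, CL, RS and RG arrays (SD 1.65 to 1.85) than on the WAT arrays (SD 1.91 to 2.00). Their 10th percentile ran from 2.11 to 2.15 in BAT, 1.97 to 2.03 in CL, 1.97 to 2.02 in RS, 1.81 to 1.87 in RG and 1.51 to 1.68 in WAT. All 11 measured markers of mature adipocytes lay above the array median on every array of all 5 groups, and Ucp1, which the gate selects, ran from 10.22 to 11.22 in BAT, from 10.19 to 10.53 in CL, from 6.05 to 8.43 in RS, from 7.69 to 8.88 in RG and from 3.20 to 4.47 in WAT.

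Markers of other cells differed between the groups on the same arrays. The level of a list is the mean of its members relative to their mean over the 15 arrays. For 15 stromal and progenitor cell genes it ran from -0.93 to -0.58 in BAT, from -0.68 to 0.15 in CL, from -1.29 to -0.41 in RS and from -0.51 to 0.29 in RG, against 0.73 to 2.06 in WAT. For 14 macrophage genes it ran from -1.29 to 0.09 over the BAT, CL, RS and RG arrays, against 1.39 to 2.47 in WAT. No stromal marker was at or below the array median on all WAT arrays, whereas Thy1 was in BAT, Has1 and Gas1 were in RS, and Gas1 was in RG. Of the 11 mature adipocyte markers, 3 rose in BAT, 3 in CL, 5 in RS and 8 in RG against WAT (27.3%, 27.3%, 45.5% and 72.7%), and none fell. Of all probe sets 27.6%, 15.2%, 11.1% and 5.19% rose in these groups, so the BAT share lies near its background. The part of these markers in the collagen differences was not tested, and in such bulk samples fewer cells of a type and less RNA per cell cannot be told apart.

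Some arrays stood apart within their group. WAT 4 was the highest of the WAT arrays for all 11 collagen genes with a mean of at least 5 and for 24 of the 44, and it also had the highest stromal level (2.06) and the lowest mature adipocyte level (-1.62). BAT 4 was the lowest BAT array for 9 of the 11 and CL 4 the lowest CL array for 8 of the 11. RS 3 read 4.72 for Col1a2 where RS 4 read 6.79, and RS 3 had the lowest endothelial marker level of all arrays (-2.17).

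**Figure D1:**
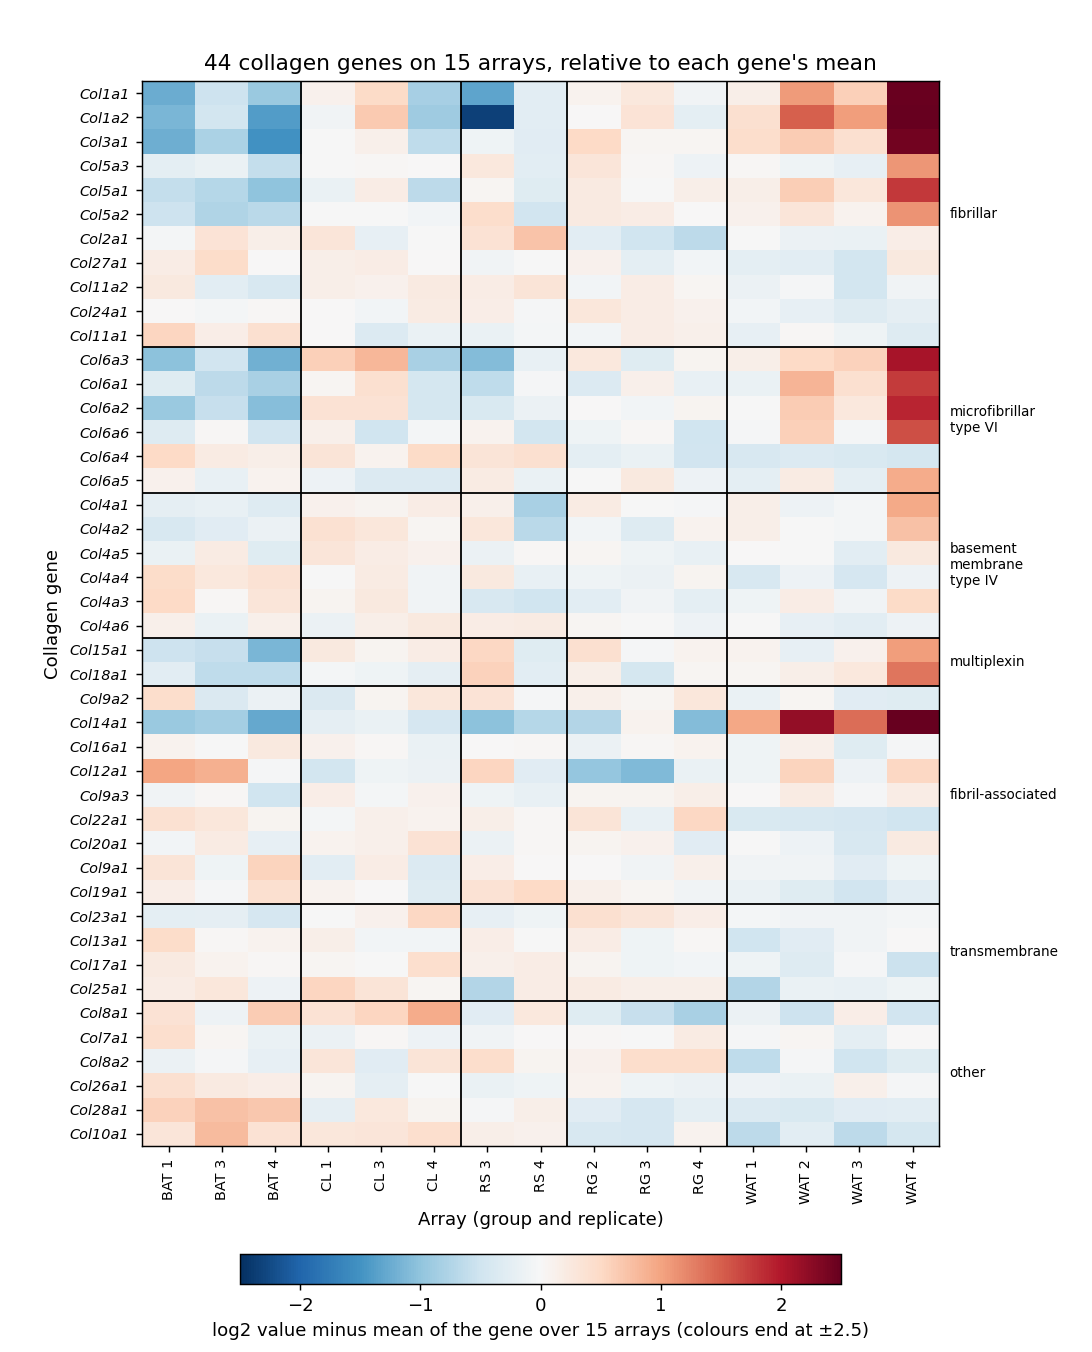
Heat map of the 44 collagen genes (vertical, by class) on the 15 arrays (horizontal, BAT, CL, RS, RG and WAT), coloured by log2 value minus the gene's mean over 15 arrays. The fibrillar, type VI and multiplexin genes of high signal and Col14a1 are darkest red on WAT 4, and Col10a1 and Col28a1 are red in BAT and blue in WAT.

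Some fibril-forming collagens, chains of types I, III and V, were lower in brown than in white adipocytes. Of the 44 collagen genes, 11 (25%) fell in BAT against WAT at an adjusted p under 0.05 by limma, against 16.4% of all probe sets that fell, and 7 (15.9%) rose, against 27.6% of all probe sets. The median difference over the 44 was 0.15 and over all probe sets 0.18, and 8 of the 11 genes that fell averaged at least 5 over the arrays. Among fibrillar chains 5 of 11 fell and 1 rose, among type VI chains 3 of 6 fell and 1 rose, and both multiplexins fell.

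The largest difference among the 44 genes was in Col14a1, a fibril-associated collagen that binds the surface of type I fibrils. Col14a1 read 3.41, 3.50 and 3.06 on the BAT arrays, against 5.30, 6.53, 5.73 and 7.11 on the WAT arrays. The BAT values lay near the array median and below every WAT value, and the difference was -2.84 ± 0.35 (SE), or 7.18-fold lower (adjusted p = 5.47e-05, limma).

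Type I collagen, the main protein of connective tissue fibrils, is made of chains from Col1a1 and Col1a2. Col1a1 read 6.65, 7.37 and 6.96 in BAT, against 8.03, 8.95, 8.49 and 10.36 in WAT. Col1a2 read 5.91, 6.58 and 5.65 in BAT, against 7.44, 8.53, 8.09 and 9.92 in WAT. Every BAT array lay below every WAT array for both chains, and WAT 4 was the highest in each. Col1a1 fell by 1.96 (SE 0.44, 3.90-fold lower, adjusted p = 0.00298) and Col1a2 fell by 2.45 (SE 0.54, 5.46-fold lower, adjusted p = 0.0025).

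Type III collagen co-assembles with type I in elastic tissues, and type V nucleates the fibrils. Col3a1 read 5.54, 5.98 and 5.25 in BAT, against 7.20, 7.40, 7.16 and 9.17 in WAT. It fell by 2.14 (SE 0.38, 4.42-fold lower, adjusted p = 0.000679). Col5a1 averaged 4.71 ± 0.21 in BAT (SD, n = 3) and 6.18 ± 0.73 in WAT (SD, n = 4) and fell by 1.47 (adjusted p = 0.00191 by limma). Col5a2 averaged 3.93 ± 0.13 in BAT and 4.99 ± 0.49 in WAT and fell by 1.05 (adjusted p = 0.00347). The third type V chain did not pass: Col5a3 averaged 5.81 in BAT and 6.35 in WAT, a difference of -0.54 (adjusted p = 0.104).

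The 3 major type VI chains, which assemble into a shared microfibril around the fat cell, fell together. Col6a3, whose carboxyl end is released as endotrophin, read 5.06, 5.60 and 4.88 in BAT, against 6.24, 6.59, 6.67 and 8.15 in WAT, a fall of 1.73 (adjusted p = 0.00533). Col6a2 fell by 1.56 (adjusted p = 0.00256), and Col6a1 fell by 1.29 (adjusted p = 0.00764). None of these BAT values overlapped the WAT values. With quantile normalization the Col6a1 call was lost (adjusted p = 0.0548).

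Among the collagens of the basement membrane zone, the multiplexins fell and the main type IV chains did not pass. Col15a1, which anchors basement membranes to fibrils, read 6.68, 6.63 and 6.05 in BAT, against 7.29, 7.0, 7.30 and 8.24 in WAT, and fell by 1.00 (adjusted p = 0.00832). Col18a1, the source of the fragment endostatin, averaged 4.05 ± 0.21 in BAT and 5.01 ± 0.59 in WAT and fell by 0.96 (adjusted p = 0.0129), a call lost with quantile normalization (adjusted p = 0.0789). Col4a1 read 6.02, 6.07 and 5.92 in BAT, against 6.39, 6.13, 6.20 and 7.19 in WAT. These BAT values lay below all WAT values, but the difference of -0.47, with a 95% interval from -0.99 to 0.04, did not pass (adjusted p = 0.123). Its partner Col4a2 differed by -0.48 (95% interval from -0.97 to 0.003, adjusted p = 0.0966).

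All 7 collagen genes that rose in BAT had means over the 15 arrays of at most 3.47, the highest array median. At this weak end, the 10th percentile over all probe sets was also higher in BAT (2.11 to 2.15) than in WAT (1.51 to 1.68). Its part in these rises was not tested. Col28a1, known from the sheath of peripheral nerve, read 3.54, 3.69 and 3.64 in BAT, against 2.61, 2.58, 2.67 and 2.69 in WAT, a rise of 0.99 (1.98-fold, adjusted p = 0.000143). Col10a1, the network collagen of growth-plate cartilage, read 2.58, 3.06 and 2.64 in BAT, against 1.61, 2.01, 1.62 and 1.84 in WAT, a rise of 0.99 (adjusted p = 0.000519). The groups did not overlap for either gene, and their calls held in all 13 alternatives that tested them, although the Col10a1 difference was 0.55 with quantile normalization. The filter on low means left both genes out. The other rises were 0.68 for Col6a4, 0.66 for Col22a1, 0.64 for Col4a4, 0.52 for Col11a1 and 0.48 for Col19a1. Of 6 measured Schwann cell markers, only S100b rose in BAT (16.7%, against 27.6% of all probe sets), with a difference of 2.18. The level of the list ran from -0.11 to 0.42 in BAT, against -0.34 to -0.09 in WAT. Its part in the Col28a1 difference was not tested. Centring the arrays on their medians ended the Col19a1 call, and quantile normalization ended those of Col4a4, Col6a4, Col11a1 and Col19a1, with a Col19a1 difference of 0.036. Col11a1 was also lost without BAT 1 (adjusted p = 0.0574), and Col19a1 without WAT 3 (0.0529) or BAT 4 (0.0858).

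**Figure D2:**
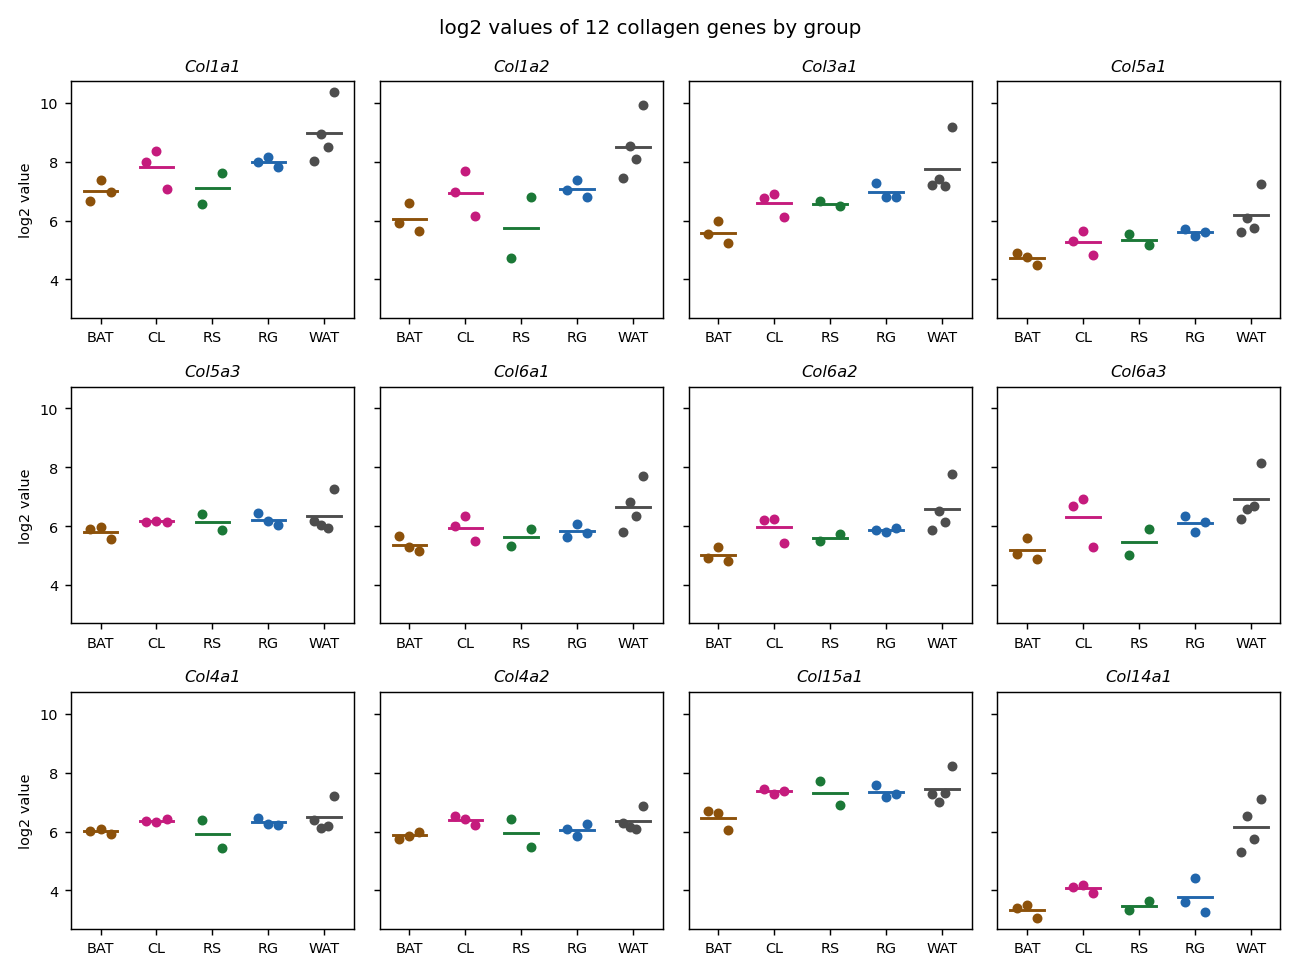
The log2 values of 12 collagen genes (vertical axis) on every array of BAT, CL, RS, RG and WAT (horizontal axis), with points for arrays and lines for group means. Col14a1 is below 4.5 on every BAT, CL, RS and RG array and above 5 on every WAT array, while Col4a1 and Col4a2 overlap between the treated groups and WAT.

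In CL, the inguinal cells of mice given the beta3 agonist, Col14a1 was again far lower than in WAT, while most other collagens did not pass. Of the 44 genes, 4 (9.09%) fell and 4 (9.09%) rose, against 9.97% and 15.2% of all probe sets. The median difference was 0.02 over the 44 genes, against 0.13 over all probe sets. Col14a1 read 4.11, 4.18 and 3.92 in CL, against 5.30 to 7.11 in WAT, and fell by 2.10 (SE 0.35, 4.28-fold lower, adjusted p = 0.00122).

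Col1a2 read 6.96, 7.69 and 6.16 in CL, which overlapped the lowest WAT value of 7.44. It fell by 1.56 (adjusted p = 0.0452 by limma). Col3a1 read 6.75, 6.89 and 6.13 in CL, all below the lowest WAT value of 7.16, and fell by 1.14 (adjusted p = 0.041). Col5a1 fell by 0.91 with overlapping values (adjusted p = 0.0422). Without WAT 4 all 3 calls were lost, with differences of -1.08 for Col1a2 (adjusted p = 0.122), -0.66 for Col3a1 (adjusted p = 0.0581) and -0.56 for Col5a1 (adjusted p = 0.0858). They were also lost without CL 1 or CL 4, where adjusted p ran up to 0.193, 0.165 and 0.181. Col1a1 read 7.99, 8.37 and 7.06 in CL, against 8.03 to 10.36 in WAT, a difference of -1.15 with a 95% interval from -2.09 to -0.21 (adjusted p = 0.0682), and of -0.68 without WAT 4. No main type VI or type IV chain and no multiplexin passed in CL.

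The rises in CL were Col8a1, Col10a1, Col6a4 and Col22a1. Col8a1, a short-chain network collagen of vessel walls and the cornea, read 4.28, 4.46 and 4.84 in CL, against 3.78, 3.40, 4.08 and 3.44 in WAT, and rose by 0.85 (adjusted p = 0.0154), a call lost without CL 4 (adjusted p = 0.0803). Col10a1 rose by 0.84 (adjusted p = 0.00373) and Col6a4 rose by 0.69 (adjusted p = 0.00479), and both calls were lost with quantile normalization. Col22a1, a collagen of tissue junctions, rose by 0.48 (adjusted p = 0.0435) and was lost when any 1 array of CL or WAT was left out (adjusted p from 0.066 to 0.114).

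RS, the inguinal cells of mice given roscovitine, rested on 2 arrays. Of the 44 genes, 5 (11.4%) fell and 4 (9.09%) rose, against 10.3% and 11.1% of all probe sets, and the median difference was -0.02, against 0.14 over all probe sets. Col14a1 read 3.32 and 3.63 in RS, against 5.30 to 7.11 in WAT, and fell by 2.69 (SE 0.40, 6.46-fold lower, adjusted p = 0.000766). Both RS values lay below every WAT value.

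The type I chains were also lower, and here the RS arrays differed from each other. Col1a2 read 4.72 on RS 3 and 6.79 on RS 4, against 7.44 to 9.92 in WAT, and fell by 2.74 (SE 0.61, adjusted p = 0.00757). Without RS 3 the Col1a2 difference was -1.71 (adjusted p = 0.107), and without both RS 3 and WAT 4 it was -1.23 (adjusted p = 0.134). Col1a1 read 6.57 on RS 3 and 7.62 on RS 4, against 8.03 to 10.36 in WAT, a fall of 1.86 (adjusted p = 0.0183). Without RS 3 the Col1a1 difference was -1.34 (adjusted p = 0.162). Col6a3 read 5.01 and 5.89 in RS, against 6.24 to 8.15 in WAT, and fell by 1.46 (adjusted p = 0.0451), a call lost without RS 3 (adjusted p = 0.273), without RS 4 (adjusted p = 0.0625) and without WAT 4 (adjusted p = 0.0881).

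Type IV chains gave a mixed picture in RS. Col4a3, a chain of the kidney filter, fell by 0.57 (adjusted p = 0.0476) at a mean of 2.45 in RS, below the array medians. Its call was lost without RS 3 (adjusted p = 0.114), RS 4 (0.182), WAT 2 (0.09) or WAT 4 (0.113), and in a fit of the 2 groups alone (0.0976). Col4a1 read 6.38 on RS 3 and 5.44 on RS 4, a difference from WAT of -0.57 that did not pass (adjusted p = 0.144). Without RS 3 the Col4a1 difference was -1.04 (adjusted p = 0.0394). RS 3, the array with the higher Col4a1, had the lower endothelial marker level (-2.17, against -0.13 on RS 4). Of 14 endothelial markers, 9 fell in RS against WAT (64.3%, against 10.3% of all probe sets). The part of these markers in the type IV values was not tested.

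The rises in RS were 0.75 for Col6a4 (adjusted p = 0.0073), 0.74 for Col19a1 (adjusted p = 0.00992), 0.62 for Col10a1 (adjusted p = 0.0333) and 0.57 for Col2a1, the cartilage fibril chain (adjusted p = 0.0475). Without RS 4 the calls of Col19a1, Col10a1 and Col2a1 were lost, and without RS 3 those of Col10a1 and Col2a1. The Col10a1 call was also lost without WAT 1 (adjusted p = 0.0658), WAT 3 (0.0682) or WAT 4 (0.0513) and with median centring (0.0644). That of Col2a1 was lost without WAT 1 (0.0659), WAT 2 (0.0953) or WAT 3 (0.0905), with median centring (0.0783) and with a trended and robust prior (0.0545). Quantile normalization ended the calls of Col10a1 (0.45), Col19a1 (0.167) and Col6a4 (0.0871). With both WAT 4 and RS 3 left out, 3 collagen genes passed, of which Col14a1 and Col19a1 are among the 9 given here, and the third was Col4a1.

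In RG, the inguinal cells of mice given rosiglitazone, few collagens passed against WAT. Of the 44 genes, 1 (2.27%) fell and 2 (4.55%) rose, against 6.24% and 5.19% of all probe sets, and the median difference was -0.002, against 0.10 over all probe sets. Col14a1 read 3.61, 4.43 and 3.26 in RG, against 5.30 to 7.11 in WAT, and fell by 2.40 (SE 0.35, 5.28-fold lower, adjusted p = 0.00104). Col1a2 read 7.05, 7.39 and 6.80 in RG, all below the lowest WAT value of 7.44, a difference of -1.42 with a 95% interval from -2.56 to -0.27 (adjusted p = 0.0994). Col1a1 differed by -0.98 (adjusted p = 0.162) and Col3a1 by -0.77 (adjusted p = 0.203), and without WAT 4 these differences were -0.51 and -0.29. Col8a2, a partner chain of Col8a1, rose by 0.69 (adjusted p = 0.0313) and Col22a1 rose by 0.64 (adjusted p = 0.0207), and both were lost without WAT 4 (adjusted p = 0.0585 for Col8a2 and 0.0545 for Col22a1).

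Col14a1 was thus lower in each of the 4 UCP1-positive groups than in WAT, and these comparisons share the WAT arrays. Its call held in all 14 alternatives run for BAT, CL and RG and all 13 for RS. Its 11 values outside WAT, from 3.06 to 4.43, lay below its 4 WAT values, from 5.30 to 7.11.

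**Figure D3:**
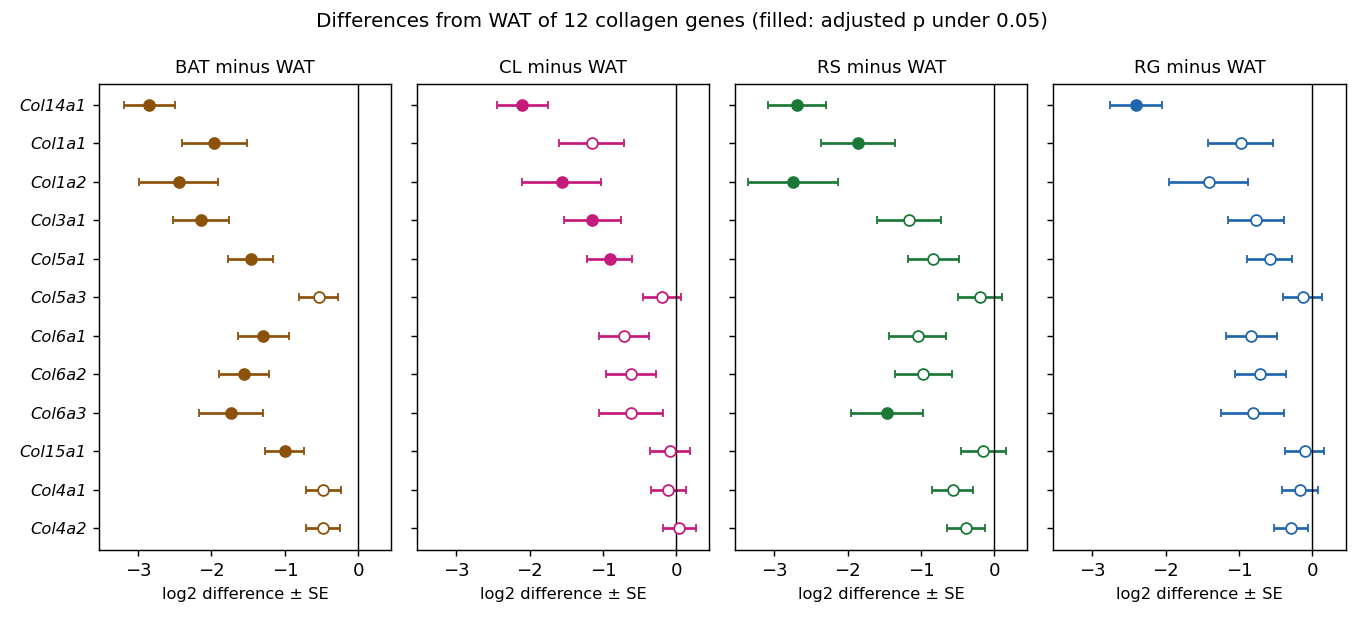
Log2 differences from WAT with their standard errors (horizontal axis) for 12 collagen genes (vertical axis) in BAT, CL, RS and RG, with filled points where the adjusted p was under 0.05. Col14a1 is filled in all 4 panels, and Col4a1, Col4a2 and Col5a3 are filled in none.

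**Figure D4:**
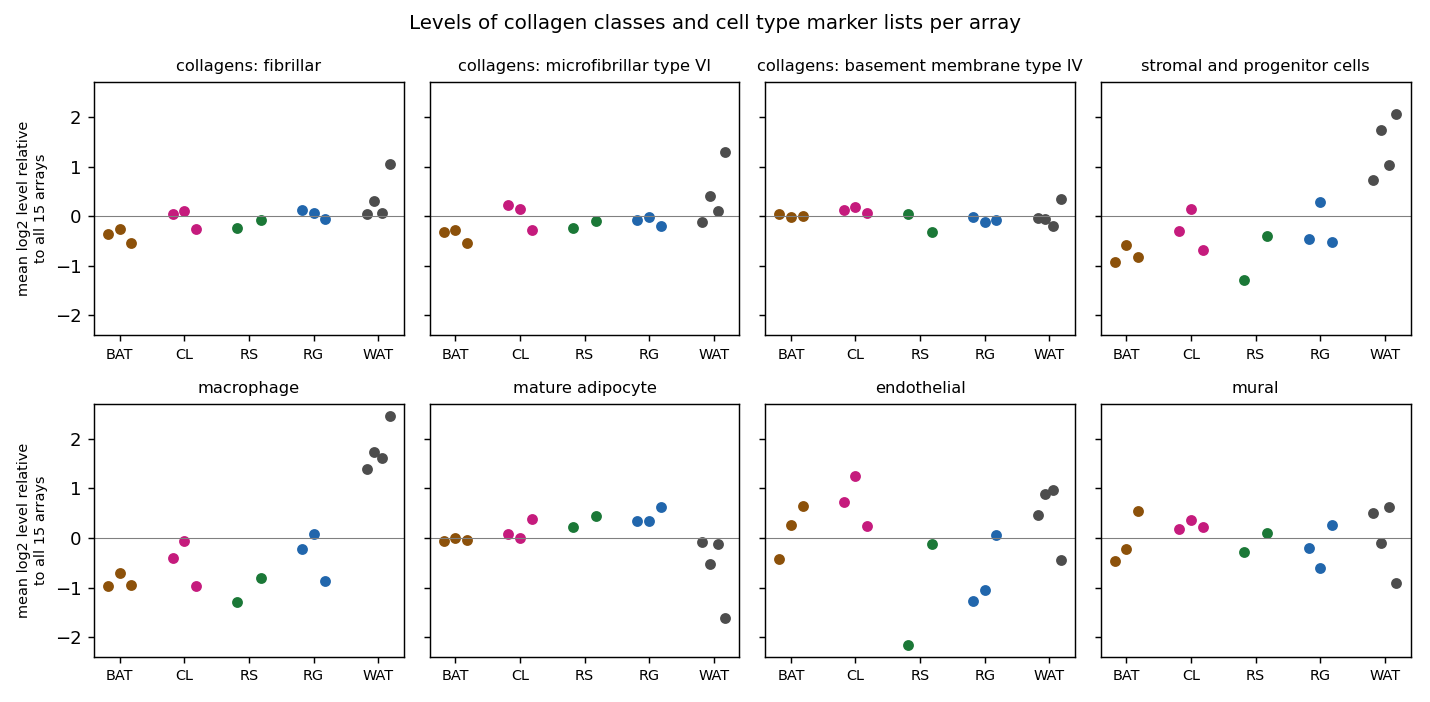
Mean log2 level of 3 collagen classes and 5 cell type marker lists on each array (points) relative to the 15-array mean (vertical axis), by group (horizontal axis). The stromal, macrophage and fibrillar levels are highest on WAT 4, and the type IV level of WAT lies within the range of the other groups on 3 of 4 arrays.

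Against BAT, few collagens passed in CL or RS. In CL against BAT, 1 of 44 fell (2.27%) and none rose, against 1.42% and 0.635% of all probe sets. It was Col28a1, which read 2.74, 3.22 and 3.02 in CL, against 3.54, 3.69 and 3.64 in BAT, a fall of 0.63 (adjusted p = 0.0439) that was lost when any 1 array of either group was left out (adjusted p from 0.0568 to 0.137). In RS against BAT, 0 of 44 passed by limma (1.33% of all probe sets rose and 2.34% fell). At an unadjusted p under 0.05 were 7 of the 44, against a larger share of all probe sets (5142 of 25206).

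RG differed from BAT in 9 collagen genes. Of the 44, 3 (6.82%) rose and 6 (13.6%) fell, against 5.85% and 8.42% of all probe sets. Col3a1 read 7.27, 6.81 and 6.81 in RG, against 5.54, 5.98 and 5.25 in BAT, and rose by 1.37 (SE 0.41, 2.59-fold, adjusted p = 0.038). Of the 6 arrays, leaving out any 1 but BAT 3 ended the Col3a1 call (adjusted p from 0.0721 to 0.12). Col15a1 read 7.59, 7.17 and 7.29 in RG, against 6.68, 6.63 and 6.05 in BAT, and rose by 0.90 (adjusted p = 0.0499), a call lost when any 1 array of either group was left out (adjusted p from 0.0656 to 0.165). Neither gene overlapped between the groups. Col23a1, a transmembrane collagen, rose by 0.58 (adjusted p = 0.0252), a call lost without BAT 4, RG 2 or RG 3 (adjusted p from 0.0713 to 0.0926), with quantile normalization (0.0646) and in a fit of the 2 groups alone (0.0594). Col1a1 read 7.98, 8.16 and 7.80 in RG, against 6.65, 7.37 and 6.96 in BAT, a difference of 0.99 that did not pass (adjusted p = 0.167). In a fit of RG and BAT alone 11 genes passed, among them Col1a1, Col1a2, Col5a1, Col5a2, Col6a2 and Col6a3, which are not among these 9.

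The falls in RG against BAT were in weakly measured collagens. Col28a1 read 2.68, 2.54 and 2.71 in RG, against 3.54, 3.69 and 3.64 in BAT, and fell by 0.98 (adjusted p = 0.00154 by limma). This call held in all 11 alternatives that tested it, but the filter on low means left Col28a1 out. Col12a1, a fibril-associated collagen of tendon and dense connective tissue, read 3.01, 2.88 and 3.82 in RG, against 4.97, 4.86 and 3.95 in BAT, and fell by 1.36 (adjusted p = 0.0136), a call lost without BAT 1, RG 2 or RG 3 (adjusted p from 0.0529 to 0.0596). Col8a1 fell by 0.84 (adjusted p = 0.0344), Col10a1 fell by 0.73 (adjusted p = 0.0178), Col2a1 fell by 0.61 (adjusted p = 0.0377) and Col6a4 fell by 0.59 (adjusted p = 0.0233). Leaving out single arrays ended the call of Col8a1 in 4 of 6 fits, Col10a1 in 3, Col2a1 in 5 and Col6a4 in 3. Of the 6 measured Schwann cell markers only S100b fell in RG against BAT (16.7%, against 8.42% of all probe sets). The S100b difference was -1.20 (adjusted p = 0.0458 by limma) and the list median -0.05. The part of this list in the Col28a1 difference was not tested.

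**Figure D5:**
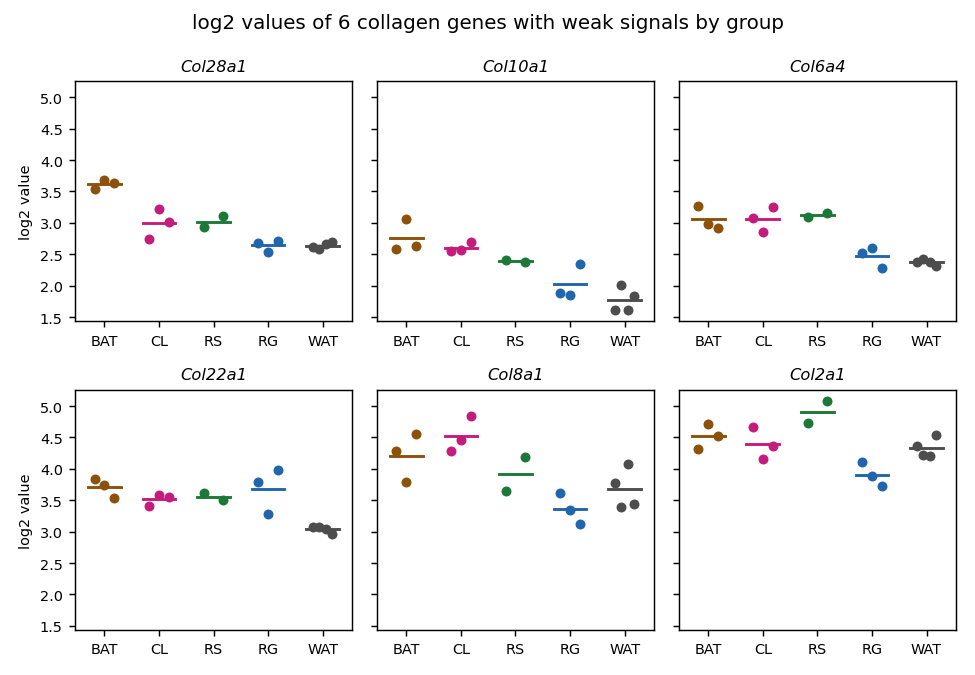
The log2 values of 6 weakly measured collagen genes (vertical axis) on every array of BAT, CL, RS, RG and WAT (horizontal axis), with points for arrays and lines for group means. Col28a1 is above 3.5 on the 3 BAT arrays and at most 3.22 on every other array.

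Among the treated groups, 2 differences passed. In RS against CL, 0 of 44 passed by limma (0.476% of all probe sets rose and 0.797% fell). An unadjusted p under 0.05 was reached by 5 of the 44, against a larger share of all probe sets (4359 of 25206). In RS against RG, 1 of 44 rose (2.27%) and none fell, against 0.345% and 0.337% of all probe sets. Col2a1 read 4.73 and 5.08 in RS, against 4.11, 3.88 and 3.72 in RG, and rose by 1.00 (SE 0.20, adjusted p = 0.0414), a call lost without RS 4 (adjusted p = 0.134) and without any single RG array. In CL against RG, 1 of 44 rose (2.27%) and none fell, against 1.65% and 1.22% of all probe sets. Col8a1 read 4.28, 4.46 and 4.84 in CL, against 3.62, 3.35 and 3.12 in RG, and rose by 1.16 (SE 0.25, 2.24-fold, adjusted p = 0.0249), a call lost without CL 3, CL 4 or any single RG array (adjusted p from 0.0533 to 0.0919). The endothelial marker level ran from 0.23 to 1.25 in CL, against -1.27 to 0.07 in RG. All 14 endothelial markers read higher in CL, with a median difference of 1.54. Of these, 1 passed (7.14%, against 1.65% of all probe sets that rose). At an unadjusted p under 0.05 were 13 of the 14, against 4896 of all 25206 probe sets. Of 10 mural cell markers Kcnj8 alone passed (a difference of 2.12, adjusted p = 0.0488), and the part of these markers in the Col8a1 difference was not tested.

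Col4a1 and Col4a2, whose start sites share the sequence shown above, passed in none of the 10 comparisons. In CL, Col4a1 read 6.35, 6.32 and 6.44 and Col4a2 read 6.53, 6.44 and 6.21. Against WAT this was a difference of -0.11 for Col4a1 (95% interval from -0.62 to 0.41) and 0.04 for Col4a2 (95% interval from -0.44 to 0.53). These intervals do not show that the levels were equal.

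Of 20 measured genes that fold and hydroxylate procollagen, 13 fell in BAT (65%), 10 in CL (50%), 3 in RS (15%) and 4 in RG (20%) against WAT, and none rose. Over all probe sets 16.4% fell in BAT, 9.97% in CL, 10.3% in RS and 6.24% in RG, and the RS share lies near that background. In BAT, Creb3l1, a transcription factor that activates the type I collagen gene in osteoblasts, fell by 2.23 (adjusted p = 0.000281), Plod2, a lysyl hydroxylase, fell by 2.43 (adjusted p = 0.000996), Ppib, a proline isomerase, fell by 1.18 (adjusted p = 0.000775) and P4hb, a subunit of prolyl 4-hydroxylase, fell by 0.99 (adjusted p = 0.000304). P4hb also fell in CL (difference -0.71, adjusted p = 0.00587) and in RS (-0.76, adjusted p = 0.00995), and Ppib fell in RG (-1.07, adjusted p = 0.00693). Against BAT, Creb3l1 rose in RG by 1.22 (adjusted p = 0.0426).

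Enzymes that trim and cross-link collagen outside the cell fell in 8 of 12 in BAT, 8 in CL, 6 in RS and 7 in RG against WAT (66.7%, 66.7%, 50% and 58.3%, against 16.4%, 9.97%, 10.3% and 6.24% of all probe sets). In the same order 1, 2, 2 and 0 rose (8.33%, 16.7%, 16.7% and 0%, against 27.6%, 15.2%, 11.1% and 5.19% of all probe sets). In BAT, Lox, the lysyl oxidase that starts cross-linking, fell by 2.28 (adjusted p = 9.82e-05), Loxl1 fell by 2.14 (adjusted p = 0.000141), Pcolce2, an enhancer of the procollagen C-proteinase, fell by 3.14 (adjusted p = 0.000175) and Bmp1, that proteinase, fell by 1.94 (adjusted p = 0.000178). Bmp1 fell by 2.13 in RS (adjusted p = 0.000933) and fell by 1.48 in RG (adjusted p = 0.00574), and Loxl2 fell by 1.88 in CL (adjusted p = 0.00129). Against BAT, Lox rose by 1.98 in RG (adjusted p = 0.00221) and rose by 1.47 in RS (adjusted p = 0.0386).

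Proteins that coat or bind fibrils fell in 11 of 12 in BAT, 8 in CL, 8 in RS and 4 in RG against WAT (91.7%, 66.7%, 66.7% and 33.3%, against 16.4%, 9.97%, 10.3% and 6.24% of all probe sets), and none rose. In BAT, Dpt, which binds decorin and speeds fibril formation, fell by 1.66 (adjusted p = 6.72e-06), Thbs2, a matricellular protein, fell by 3.00 (adjusted p = 9.66e-06), and the small leucine-rich proteoglycans Ogn and Lum fell with differences of -3.19 and -3.00. Thbs2 also fell, with differences of -2.78 in CL, -2.13 in RS and -1.81 in RG. Against BAT, 5 of the 12 rose in RG, led by Dpt (1.34, adjusted p = 0.000374). Over the 12 genes the median difference from WAT was -2.09 in BAT, -1.37 in CL, -2.17 in RS and -1.22 in RG. These lists hold genes of stromal cells, whose 15 markers fell in 14 (BAT), 10 (CL), 12 (RS) and 9 (RG) cases against WAT; their part was not tested.

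Partners of type IV collagen in the basement membrane fell in 7 of 15 in BAT, 3 in CL, 1 in RS and 1 in RG against WAT. Only 1 rose, in BAT (6.67%, against 27.6% of all probe sets). The shares that fell were 46.7%, 20%, 6.67% and 6.67%, against 16.4%, 9.97%, 10.3% and 6.24% of all probe sets, so the RS share was below its background and the RG share near it. In BAT, Nid1, which links laminin to type IV collagen, fell by 1.54 (adjusted p = 0.000116), Lama2, a laminin chain, fell by 2.38 (adjusted p = 0.00228), Nid2 fell by 1.27 (adjusted p = 0.00374) and Hspg2, or perlecan, fell by 0.96 (adjusted p = 0.00343). Lama2 fell by 2.56 in RS (adjusted p = 0.00863) and Lamb2 fell by 1.13 in RG (adjusted p = 0.0181).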

How the data were processed

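The deposited values are log2 expression values of 15 arrays and 25206 probe sets, with 23185 named through the Entrez number in their identifiers. Per the submitters' processing notes, RMA, affy 1.36.1 and Affymetrix Expression Console were used; order, settings and probe-set definition are not given in the sources used here. Per the labels' protocols, 2 ng of total RNA was amplified and biotin-labelled with a WT Pico kit. Differences between groups were fitted with limma 3.58.1 in R 4.3.3 over all arrays and probe sets (1 mean per group, 10 residual degrees of freedom, eBayes), and two-sided p-values were adjusted by Benjamini-Hochberg across the whole table in each comparison, with a threshold of 0.05. No probe set was filtered out. The fitting was tested on simulated data. Collagens with a mean of at least 5 and all called collagens were named, and up to 4 genes of each other list by smallest p. The collagen genes and the lists were chosen with earlier results of these data known. Same-numbered arrays of different groups (24 pairs) correlated between -0.88 and -0.05 after removal of group means. Of the arrays, 0 correlated best with their own number, and the main fit did not use the numbers as pairs. Because all 24 correlations were negative, this check cannot show that same-numbered arrays are independent. The lowest, -0.88, was between WAT 2 and RG 2, the only arrays numbered 2. Why the correlations were negative was not tested. The main p-values treat arrays as independent, and with the replicate number as a block 24 of the 50 collagen calls were lost. The number of arrays limits the precision. Alternatives were array centring, quantile normalization, a filter on low means, eBayes with trend and robust, fits of the 2 groups alone, the replicate number as a block, and leaving out arrays.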

Additional observations from a re-analysis of the deposited data

Results flagged for a closer look

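In a test of the WAT arrays for a value far from the other 3 (Dixon's test, the only group with 4 arrays), 3 of 44 collagen genes had one, where chance gives about 1 in 20. Col3a1 was 9.17 on WAT 4, against 7.16 to 7.40 on the others, the array that is highest for all 11 collagen genes with a mean of at least 5. Another 2, weak genes, named because of this test, were low on single arrays: Col25a1 was 2.45 on WAT 1, against 3.01 to 3.09 on the others, and Col9a1 was 2.97 on WAT 3, against 3.14 to 3.17 on the others.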

How the results depend on the processing

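The number of collagen genes called in BAT against WAT was 18, and 15 with quantile normalization, 16 with the replicate block, 12 with low means left out and 17 to 20 without single arrays. In CL against WAT it was 8, and 2 with quantile normalization, 3 with the replicate block and 3 to 9 without single arrays. In RS against WAT it was 9, and 5 with quantile normalization, with low means left out and with the replicate block, 4 in a fit of the 2 groups alone, 3 without both WAT 4 and RS 3, and 4 to 10 without single arrays. In RG against WAT it was 3, and 1 with quantile normalization, with the replicate block and without both WAT 4 and RS 3, and 1 to 5 without single arrays. In RG against BAT it was 9, and 4 with quantile normalization, 5 with low means left out, 1 with the replicate block, 11 in a fit of the 2 groups alone and 2 to 6 without single arrays. In CL against BAT it was 1, and 0 with median centring, with low means left out, with the replicate block, in a fit of the 2 groups alone and without any single array. In RS against BAT it was 0, and 1 with quantile normalization. In RS against RG it was 1, and 0 with the replicate block and in a fit of the 2 groups alone, and 0 to 1 without single arrays. In CL against RG it was 1, and 0 with the replicate block, 2 with a trended and robust prior, and 0 to 1 without single arrays. In RS against CL it was 0 throughout the leave-one-out fits. Leaving out low means tests fewer probe sets, and fits with fewer arrays have fewer degrees of freedom; the cause of the other losses was not tested.

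Some uncalled differences from WAT changed sign. Against WAT in CL, quantile normalization gave 0.04 for Col15a1, 0.091 for Col4a1 and 0.003 for Col5a3, median centring gave -0.02 for Col4a2, and leaving out WAT 4 and RS 3 gave 0.17, 0.13 and 0.10 for Col15a1, Col4a1 and Col5a3. In RG, leaving out both gave 0.15, 0.067 and 0.17 for Col15a1, Col4a1 and Col5a3. In RS, quantile normalization gave 0.059 for Col15a1 and 0.13 for Col5a3. Without single arrays, the ranges in CL were -0.24 to 0.17 for Col15a1, -0.22 to 0.13 for Col4a1, -0.043 to 0.22 for Col4a2 and -0.33 to 0.10 for Col5a3. In RG they were -0.26 to 0.15 for Col15a1, -0.29 to 0.067 for Col4a1 and -0.27 to 0.17 for Col5a3, and in RS -0.57 to 0.26 for Col15a1, -0.87 to 0.087 for Col4a2 and -0.47 to 0.10 for Col5a3. Of the 50 calls of collagen genes over the 10 comparisons, 24 were lost with the replicate block and 23 with quantile normalization. The number of arrays, and for weak genes the signal over background, limit what these data resolve.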

Other observations

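Collagen receptors and genes of the TGF-beta axis, which drives collagen transcription in fibroblasts, were also measured. Of 12 receptors and uptake genes, 6 fell in BAT, 7 in CL, 4 in RS and 3 in RG against WAT (50%, 58.3%, 33.3% and 25%). Only 1 rose, in BAT (8.33%, against 27.6% of all probe sets). Over all probe sets 16.4%, 9.97%, 10.3% and 6.24% fell in these groups. Antxr1, a receptor for types I and VI collagen, fell with differences from WAT of -3.32 in BAT (adjusted p = 6.37e-05), -2.32 in CL, -2.65 in RS and -2.13 in RG. Ddr2, a collagen receptor tyrosine kinase, fell by 2.39 in BAT (adjusted p = 0.000138). Of 15 TGF-beta genes, 9 fell in BAT, 4 in CL, 8 in RS and 7 in RG (60%, 26.7%, 53.3% and 46.7%, against the same background), and none rose. Tgfb3, a ligand, fell with differences of -1.89 in BAT, -1.09 in CL, -1.24 in RS and -1.31 in RG, and the receptor gene Tgfbr2 with differences of -1.0 in CL, -1.13 in RS and -1.27 in RG. Macrophage markers fell in 14 of 14 in BAT, CL and RS and in 13 of 14 in RG on the same arrays, and their part was not tested. Against WAT, among 10 mural markers only Cnn1 passed, with differences of -1.23 in BAT and -1.59 in CL. In CL against RG, Kcnj8 passed (difference 2.12, adjusted p = 0.0488).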
